A study of Macaca mulatta with 25 samples.

Results

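The 35 genes described here encode aminoacyl-tRNA synthetases, and their transcripts were counted in 25 libraries of rhesus macaque blastocysts. A blastocyst is the embryo just before implantation, with an outer trophectoderm that starts the placenta and an inner cell mass that holds the epiblast and the primitive endoderm. The genes were chosen by symbol. Those whose symbol ends in 1, with FARSA and FARSB, are called cytosolic (19 genes), and those whose symbol ends in 2 are called mitochondrial (16 genes). Each of the 35 symbols was paired with 1 of the 35395 rows of the count table, and all 35 were among the 13934 genes that reached 1 CPM (counts scaled to a common library size) in at least 5 libraries.

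A synthetase joins 1 kind of amino acid to the transfer RNAs that carry it, which is the step that lets the ribosome read the genetic code. Animal cells run a set of these enzymes in the cytosol and another, encoded by separate nuclear genes and imported, in mitochondria. Several cytosolic enzymes sit together in the multi-synthetase complex, and a subset of the cytosolic genes is known to be switched on by ATF4, the transcription factor that cells make more of when amino acids run short or the endoplasmic reticulum is stressed. GARS1 and KARS1 serve both compartments from a single gene.

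The libraries fell into 4 groups by the treatment of the mother, who entered the study before puberty at 2.5 years of age and was treated for 5 to 6 years. Controls (C, 5 libraries) ate standard chow (15% fat, 59% carbohydrate, 26% protein) and carried cholesterol implants. Females of the T group (10 libraries) ate the same chow and carried testosterone implants set for 3 to 5 times the normal circulating level, females of the WSD group (8 libraries) ate a Western-style diet (36% fat, 46% carbohydrate, 18% protein), and females of the TWSD group (2 libraries) had both. Each group started with 10 females, of which 10 C, 7 T, 6 WSD and 3 TWSD females underwent ovarian stimulation, so the treated groups are the females still able to. All oocytes were fertilized in vitro with semen of 4 males, and embryos were cultured for up to 8 days. The labels do not tie a library to a mother, father or batch, nor say whether it is 1 embryo, so embryos may share parents and the p-values measure the spread between libraries only.

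Library totals ran from 14219054 to 35544542 counts, and 14.2 counts made 1 CPM in the shallowest library. C 1, C 8, C 11, C 12, T 1 and the TWSD libraries stood apart in markers of embryonic cell types. The summed level of 5 trophectoderm genes was 1660, 2030 and 1510 CPM in C 1, C 11 and C 12. It was 11400 and 9300 CPM in C 2 and C 8, and at least 3160 CPM in the other groups. The summed level of 8 syncytiotrophoblast genes reached 10300 CPM in C 8, and C 11, C 12 and T 1 followed with 3740, 5620 and 3730 CPM, against 48.3 and 222 CPM in C 1 and C 2 and at most 506 CPM in the WSD group. The summed level of 6 epiblast genes was 1450, 953 and 472 CPM in C 1, C 2 and C 8, but C 11 had 25.4 CPM and C 12 2.43 CPM, with KLF17 and TDGF1 at 0 in C 12. TWSD 2 and TWSD 3 had the lowest syncytiotrophoblast sums of the 25 libraries, at 23.7 and 39.0 CPM. The summed level of 6 primitive endoderm genes was 80.5 CPM in TWSD 2 and 532 CPM in TWSD 3, against at least 369 CPM in the other groups. A set of 8 cumulus and granulosa cell genes summed to 1290 CPM in C 11 and to 111 in C 12. Each library here is a whole embryo or embryos, so fewer cells of a type and less RNA per cell cannot be told apart. The part of cell makeup in any result below was not tested.

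Most synthetase transcripts held a narrow range across the 25 libraries. The median SD of log2 CPM was 0.51 over the 19 cytosolic genes and 0.70 over the 16 mitochondrial genes, against 1.22 over all genes tested. The steadiest were NARS1 (asparagine), with an SD of 0.31, and KARS1 (lysine), with an SD of 0.35. The most variable were MARS2 (SD 1.85), VARS2 (1.76) and TARS2 (1.73), the mitochondrial enzymes for methionine, valine and threonine, and in each of them a single library lay far below the rest. MARS2 had 0 counts in TWSD 2, which allows up to 0.193 CPM at 3 counts (counting error only), and 278 to 1892 counts in the other libraries. VARS2 had 2 counts in TWSD 2 and 350 to 3201 elsewhere. TARS2 had 10 counts in C 12 and 645 to 6014 elsewhere.

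C 12 and TWSD 2 held most of the extremes. Of the 35 genes, 33 were highest or lowest of the 25 libraries in one of these libraries, against 62.7% of all genes tested. In C 12 the cytosolic genes went both ways. AARS1, CARS1, GARS1, HARS1, IARS1, NARS1, SARS1 and TARS1 (8 of 19) were highest of all libraries there, and EPRS1, FARSB, KARS1, QARS1 and YARS1 (5 of 19) were lowest. The mitochondrial genes were more often at the bottom, with AARS2, CARS2, FARS2, IARS2, RARS2, SARS2 and TARS2 (7 of 16) lowest and HARS2 and WARS2 highest. Among all genes tested, C 12 was highest for 19.3% and lowest for 21.9%. Of the 11 cytosolic genes listed as ATF4 targets, 7 were highest and 2 (EPRS1 and YARS1) lowest in C 12, and of the 8 other cytosolic genes 1 (HARS1) was highest and 3 were lowest. ATF4 itself stood at 1570 CPM in C 12, followed by C 11 with 413 CPM. The levels in C 1, C 2 and C 8 were 227, 148 and 194 CPM, and the T group reached at most 351 CPM.

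**Figure D1:**
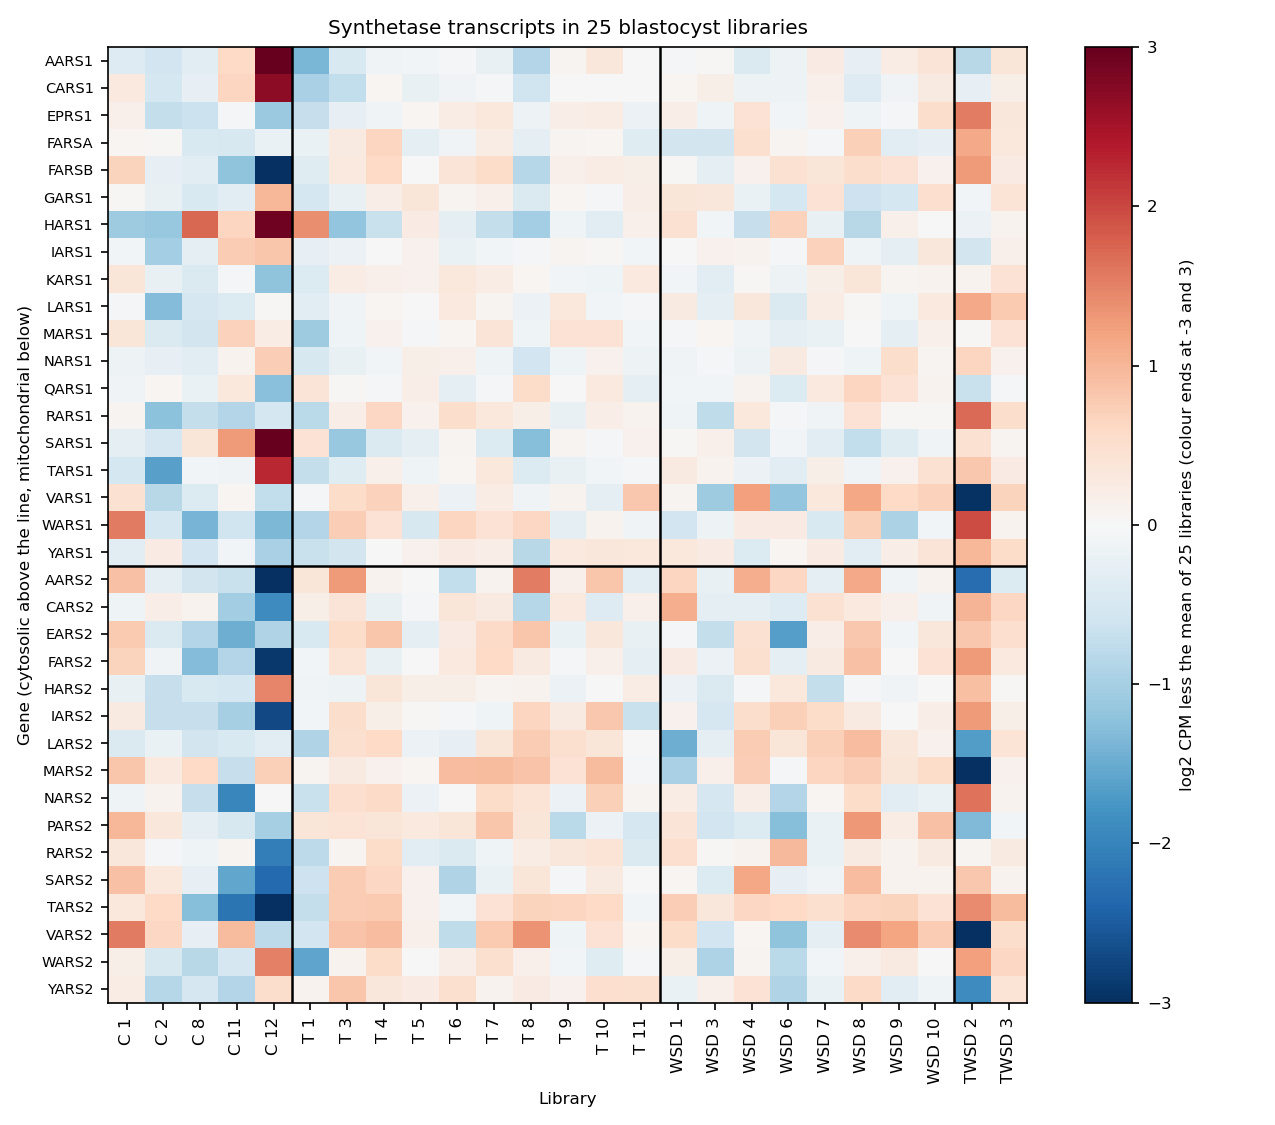
Each row is a synthetase gene and each column a library. Colour gives the log2 CPM less the gene's mean over 25 libraries, with red above and blue below the mean, and the colour scale ends at -3 and 3. Strong colours gather in C 12 and TWSD 2, where 33 of the 35 genes have their highest or lowest value.

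TWSD 2 had another pattern. There 7 of the 19 cytosolic genes were highest of the 25 libraries (EPRS1, FARSA, FARSB, LARS1, RARS1, WARS1 and YARS1), and VARS1, the cytosolic valine enzyme, was lowest at 25.8 CPM. Its mitochondrial genes split into 4 highest (FARS2, IARS2, NARS2 and TARS2) and 5 lowest (LARS2, MARS2, PARS2, VARS2 and YARS2). TWSD 2 was highest for 15.6% and lowest for 16.2% of all genes tested. TWSD 3, the other library of its group, held 1 extreme among the 35 genes, the highest level of KARS1 at 633 CPM.

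To follow the balance between the compartments, the mean log2 CPM of the 16 mitochondrial genes was taken from that of the 19 cytosolic genes in each library. The size of this difference carries gene length and is read only between libraries. For C 1, C 2, C 8, C 11 and C 12 it was 1.95, 1.83, 2.52, 3.21 and 4.04. C 1 and C 2 lay inside the range of the T group, and C 8, C 11 and C 12 lay above every T and WSD library, C 8 by a small margin. In the T group it ran from 1.50 to 2.47 (2.11 ± 0.32, SD, n = 10), in the WSD group from 1.70 to 2.50 (2.21 ± 0.27, n = 8), and in TWSD 2 and TWSD 3 it was 3.46 and 2.35. The control mean was 2.71 ± 0.92 (n = 5). The T mean less the control mean was -0.59 and the WSD mean less the control mean -0.49, both smaller than the SD of the controls. Without C 8, C 11 and C 12, which leaves C 1 and C 2 as the only controls, these differences turned to 0.23 and 0.33.

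In C 11 and C 12 most of the distance from the T group lay on the mitochondrial side. Mean log2 CPM of the mitochondrial genes was 6.44, 5.92, 5.50, 5.17 and 4.67 in C 1, C 2, C 8, C 11 and C 12, and 5.66 to 6.5 in the T group. That of the cytosolic genes was 8.38, 7.74, 8.02, 8.38 and 8.71 in the same controls, and 7.93 to 8.45 in the T group. The summed level of the cytosolic genes, in which abundant transcripts weigh more, was 18750 CPM in C 12 and 11210 in TWSD 2, against 4503 to 8221 in the other 23 libraries. In TWSD 2 the mean over mitochondrial genes was 5.19, pulled down by MARS2 and VARS2, while the summed mitochondrial level of 1882 CPM was the highest of the 25 libraries.

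**Figure D2:**
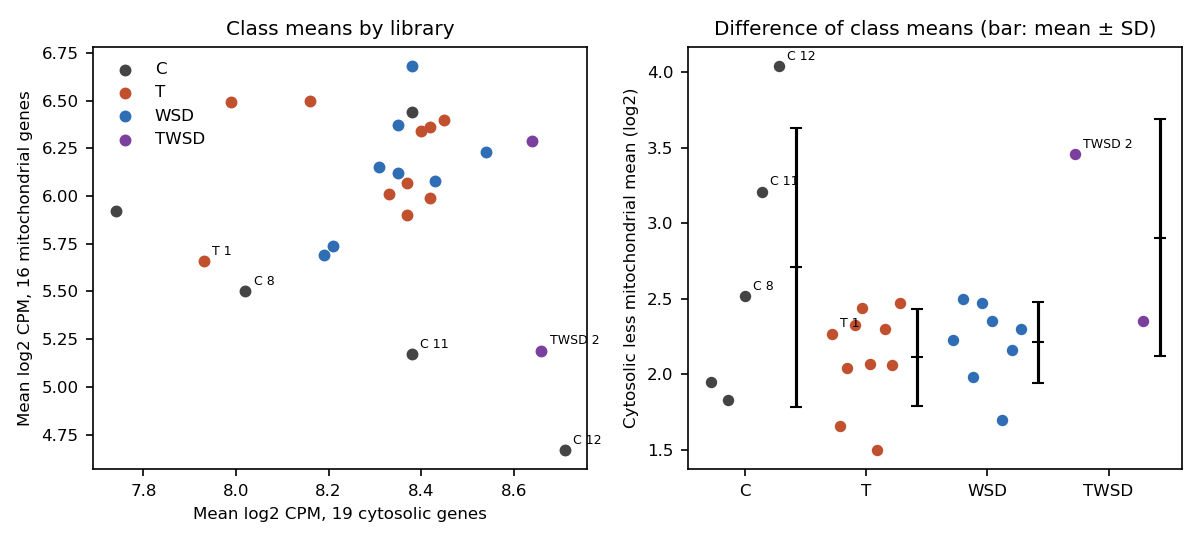
Left, each point is a library, with the mean log2 CPM of the 19 cytosolic genes on the horizontal axis and of the 16 mitochondrial genes on the vertical axis. Right, the difference of those means per library by group, with bars for the mean ± SD. C 12 and C 11, at 4.04 and 3.21, and TWSD 2, at 3.46, lie above the T and WSD libraries.

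Embryos of testosterone-treated mothers were compared with controls to ask what maternal androgen excess changed. In T against C, 3 cytosolic genes fell and no synthetase gene rose. They were AARS1, SARS1 and CARS1, the cytosolic enzymes for alanine, serine and cysteine, and all 3 are on the list of ATF4 targets. The other 16 cytosolic and all 16 mitochondrial genes did not pass. Of all genes tested, 3.77% were called lower and 0.337% higher by edgeR's quasi-likelihood test at a Benjamini-Hochberg adjusted p under 0.05.

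AARS1 stood at 284, 250, 300, 560 and 5345 CPM in C 1, C 2, C 8, C 11 and C 12. In the T group its lowest, median and highest level were 145, 350 and 475 CPM. C 12 was 9.54 times the next library and the first 3 controls lay inside the T range. The fitted log2 change was -2.05 ± 0.49 (SE; edgeR adjusted p = 0.0177), although the T median was above the control median of 300 CPM. Without C 12 the change was -0.10 ± 0.27 (edgeR adjusted p = 0.942).

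SARS1 stood at 290, 245, 443, 846 and 3740 CPM in the 5 controls, in the same order, and at 144, 310 and 471 CPM (lowest, median, highest) in the T group. Here C 11 as well as C 12 was above every T library, and C 1, C 2 and C 8 were inside the T range. The log2 change was -1.88 ± 0.42 (edgeR adjusted p = 0.0127), and without C 12 it was -0.59 ± 0.29 (edgeR adjusted p = 0.410). CARS1 stood at 252, 142, 173, 324 and 1326 CPM in the controls and at 105, 194 and 215 CPM in the T group. C 1, C 11 and C 12 were above every T library. The log2 change was -1.33 ± 0.34 (edgeR adjusted p = 0.0250), and -0.33 ± 0.21 without C 12 (edgeR adjusted p = 0.589).

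HARS1, the cytosolic histidine enzyme, had the next smallest p and did not pass. It stood at 171, 162, 1182, 556 and 2688 CPM in the controls and at 156, 291 and 942 CPM in the T group. Its 3 highest libraries were C 12, C 8 and T 1, which also had high syncytiotrophoblast sums. C 11, the other library with a high sum, was at the level of the highest WSD library (573 CPM). Its log2 change was -1.47 ± 0.47 (edgeR adjusted p = 0.0716), and -0.61 ± 0.44 without C 12 (edgeR adjusted p = 0.645). TARS1, for threonine, had a similar control pattern at 221, 104, 304, 300 and 1537 CPM, with only C 12 above the highest T library (402 CPM). Its log2 change was -0.74 ± 0.36 (edgeR adjusted p = 0.276), and 0.35 without C 12.

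**Figure D3:**
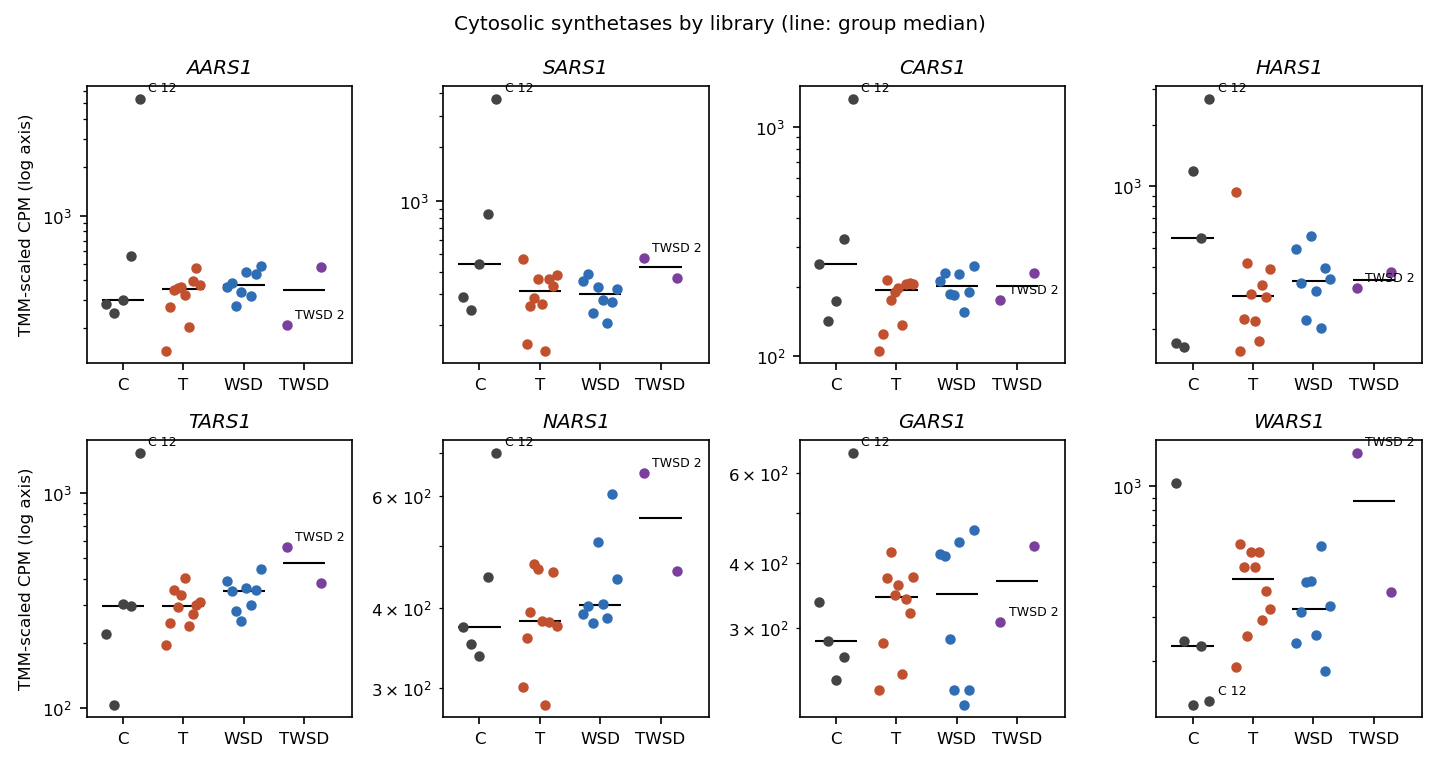
TMM-scaled CPM on a log axis for 8 cytosolic synthetase genes, with a point per library and a line at each group median. AARS1, SARS1, CARS1, HARS1, TARS1, NARS1 and GARS1 have their highest value in C 12, and WARS1 has its highest values in TWSD 2 (1361 CPM) and C 1 (1029 CPM).

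The remaining cytosolic genes showed small differences. Of the 19, 10 had a positive and 9 a negative log2 change, with a median of 0.20 against -0.12 for all genes tested. Among the 7 enzymes of the multi-synthetase complex none passed. RARS1, for arginine, had the largest difference, at 575, 232, 327, 294 and 377 CPM in the controls against 306, 615 and 831 CPM in the T group. C 1 alone of the controls was near the T median. The log2 change of RARS1 was 0.75 ± 0.25 (edgeR adjusted p = 0.0825), and RARS1 passed when C 1 or T 1 was left out.

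No mitochondrial synthetase passed in this comparison. In T against C, 13 of the 16 had a positive log2 change, the median was 0.49 and the range -0.22 to 0.94. Without C 8, C 11 and C 12, 9 of the 16 were positive and the median was 0.05, beside 0.08 for all genes. IARS2, for mitochondrial isoleucine, had the smallest p. Its levels were 129, 66.3, 66.9, 53.7 and 16.3 CPM in the controls and 67.9, 116 and 188 CPM in the T group. C 2, C 8, C 11 and C 12 were below every T library and C 1 was above the T median. IARS2 had a log2 change of 0.90 ± 0.33 (edgeR adjusted p = 0.118).

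NARS2 (asparagine) had 112, 132, 75.6, 31.4 and 123 CPM in the controls and 76.7, 146 and 203 CPM in the T group, with C 11 lowest (log2 change 0.61 ± 0.31, edgeR adjusted p = 0.301). EARS2 (glutamate) had 207, 90.1, 66.0, 43.8 and 64.7 CPM in the controls and 88.4, 149 and 217 CPM in the T group (0.66 ± 0.35, edgeR adjusted p = 0.331). Without C 8, C 11 and C 12 the changes were 0.28 for NARS2, 0.04 for EARS2 and 0.39 for IARS2. C 1 was among the highest for EARS2, and C 8, C 11 and C 12 were below every T library.

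LARS2 differed from these in that the controls lay close together. Its levels were 40.3, 47.5, 37.0, 39.7 and 43.0 CPM in the controls, against 28.9, 69.8 and 91.9 CPM in the T group. No control stood out, and 8 of the 10 T libraries were above all 5 controls. LARS2 encodes the mitochondrial leucine enzyme. Its log2 change was 0.63 ± 0.34 (edgeR adjusted p = 0.334), and 0.65 without C 12.

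**Figure D4:**
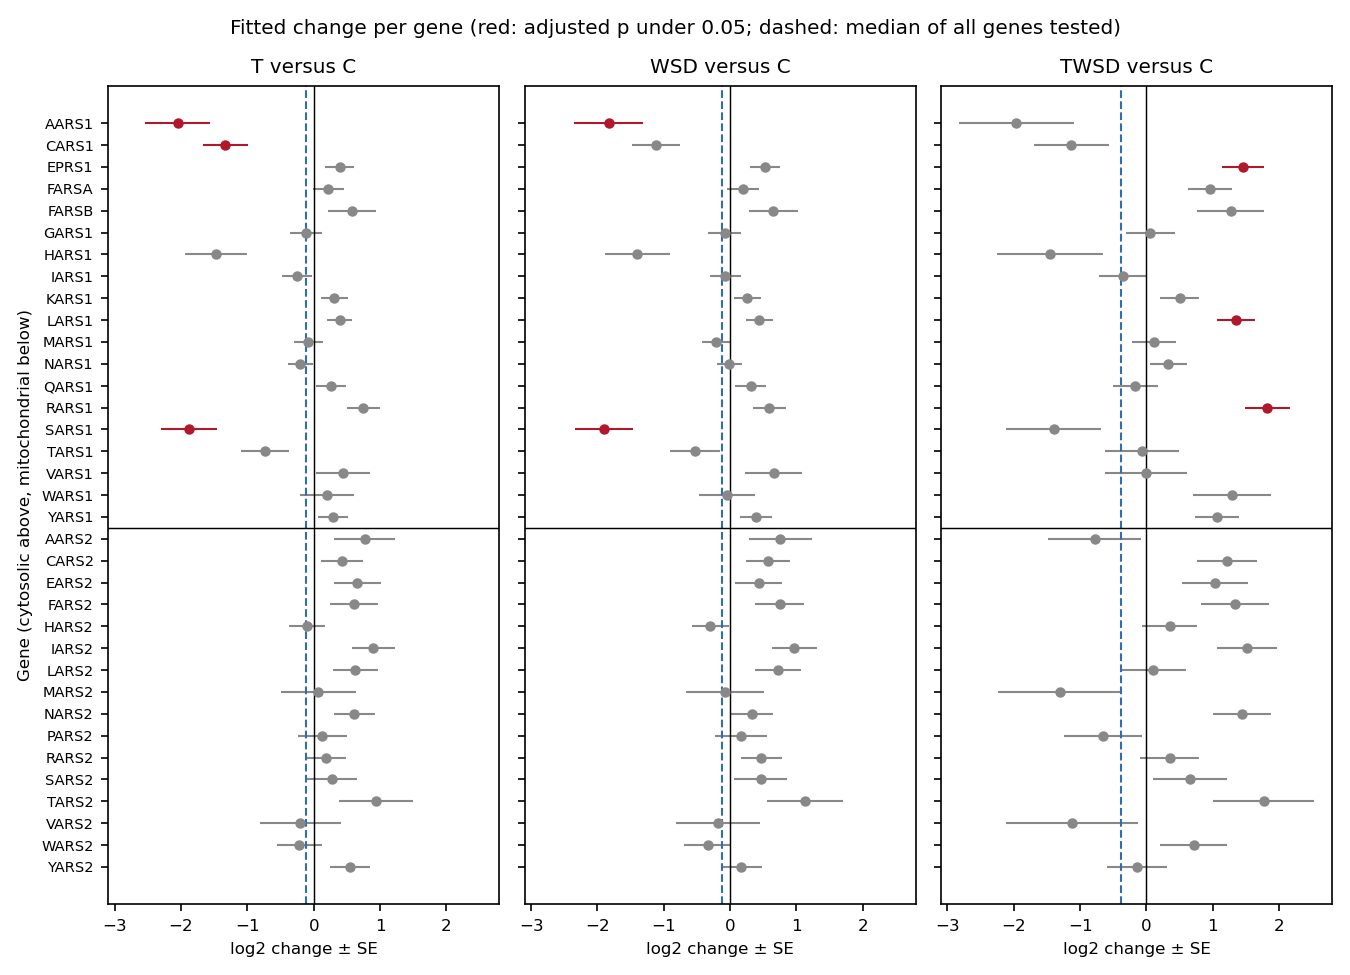
Fitted log2 change ± SE of each synthetase gene in T, WSD and TWSD against C, cytosolic above the horizontal line and mitochondrial below. Red marks an edgeR adjusted p under 0.05 and the dashed line the median of all genes tested (-0.12, -0.12 and -0.38). The red points are AARS1, CARS1 and SARS1 in T, AARS1 and SARS1 in WSD, and EPRS1, LARS1 and RARS1 in TWSD. The 3 panels share the control libraries.

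The diet comparison asked what a maternal Western-style diet changed in the embryo. In WSD against C, 2 cytosolic genes fell, AARS1 and SARS1, and none rose. Of all genes tested, 3.6% were called lower and 0.466% higher. The controls are the same 5 libraries as above, so the WSD and T comparisons are not independent.

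AARS1 had 276, 372 and 487 CPM (lowest, median, highest) in the WSD group, with C 1 and C 8 inside this range, C 2 below it, and C 11 and C 12 above. The log2 change was -1.83 ± 0.52 (edgeR adjusted p = 0.0436), and 0.12 ± 0.28 without C 12 (edgeR adjusted p = 0.931), where the direction turned. SARS1 had 207, 298 and 388 CPM in the WSD group, below C 8, C 11 and C 12 throughout. Its log2 change was -1.90 ± 0.44 (edgeR adjusted p = 0.0164), and -0.62 ± 0.30 without C 12 (edgeR adjusted p = 0.396).

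CARS1 had 156, 202 and 247 CPM in the WSD group and did not pass (-1.12 ± 0.36, edgeR adjusted p = 0.0715). HARS1 had 202, 344 and 573 CPM and did not pass either (-1.40 ± 0.49, edgeR adjusted p = 0.104). C 1, C 11 and C 12 lay above every WSD library for CARS1, and C 8 and C 12 for HARS1. Without C 12 the changes were -0.12 for CARS1 and -0.55 for HARS1. The 19 cytosolic genes as a list had a median log2 change of -0.01, with 9 positive. With voom and with library totals the number of positive changes was 17 and 12.

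None of the mitochondrial genes passed by edgeR, with 12 of 16 positive and a median of 0.45, against -0.12 for all genes. DESeq2 called 1 of them, IARS2 (DESeq2 adjusted p = 0.048). Without C 8, C 11 and C 12, 10 of 16 were positive and the median was 0.08, beside 0.06 for all genes. IARS2 had 75.5, 126 and 176 CPM in the WSD group, all above C 2, C 8, C 11 and C 12 (log2 change 0.97 ± 0.34, edgeR adjusted p = 0.102). TARS2, for mitochondrial threonine, had 139, 169, 46.3, 24.2 and 0.522 CPM in the controls and 141, 171 and 187 CPM in the WSD group. C 1 and C 2 were at the level of the WSD group, which was narrow, and C 8, C 11 and C 12 were far below. TARS2 had a log2 change of 1.13 ± 0.58 (edgeR adjusted p = 0.304), and 0.14 ± 0.29 without C 8, C 11 and C 12.

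FARS2, for mitochondrial phenylalanine, had 63.2, 36.9, 16.0, 21.4 and 5.22 CPM in the controls and 32.4, 47.5 and 73.1 CPM in the WSD group. C 8, C 11 and C 12 were below every WSD library, and C 1 and C 2 were within the WSD range (0.75 ± 0.37, edgeR adjusted p = 0.289). LARS2 had 19.6, 69.3 and 103 CPM in the WSD group, with 6 of 8 libraries above all controls (0.72 ± 0.35, edgeR adjusted p = 0.273). HARS2 and WARS2, the mitochondrial histidine and tryptophan genes, had negative changes of -0.30 and -0.34. C 12 was the highest of 25 libraries for both, at 278 and 118 CPM.

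No synthetase gene passed between embryos of the T and WSD groups. In WSD against T none had an unadjusted p under 0.05 by edgeR, and DESeq2 and voom called none. The log2 changes ran from -0.25 to 0.23 for the cytosolic and from -0.38 to 0.29 for the mitochondrial genes. Among all 13934 genes tested this comparison had 0 calls, with 237 at an unadjusted p under 0.05. DESeq2 called 3 higher and 3 lower over all genes, and voom none.

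The last comparison with controls asked what both treatments together changed. In TWSD against C, 3 cytosolic genes rose and none fell. They were RARS1, LARS1 and EPRS1, the enzymes for arginine, leucine, and glutamate and proline. EPRS1 carries both of its activities in a single chain. All 3 belong to the multi-synthetase complex, which accounts for 7 of the 35 genes. No mitochondrial gene passed by edgeR, while DESeq2 called IARS2 and NARS2 (DESeq2 adjusted p = 0.0263 and 0.0434). Of all genes tested, 0.861% were called higher and 0.337% lower, and the group has 2 libraries. TWSD 2, which had the highest levels of all 3 genes, also had the lowest primitive endoderm sum, 80.5 CPM against 488 to 1380 CPM in the controls, and the part of this in the result was not tested.

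RARS1 was at 1765 CPM in TWSD 2 and 785 in TWSD 3, against 232 to 575 CPM in the controls. TWSD 2 was 2.12 times the next library, T 4 at 831 CPM, which in turn exceeded TWSD 3. The log2 change was 1.82 ± 0.34 (edgeR adjusted p = 0.0177). LARS1 was at 740 and 582 CPM, against 323, 136, 236, 254 and 346 CPM in the controls, and no T or WSD library exceeded 425 CPM. The 2 TWSD libraries were the highest of the 25. Its log2 change was 1.35 ± 0.28 (edgeR adjusted p = 0.0177).

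EPRS1 was at 1530 and 667 CPM, against 587, 318, 334, 512 and 243 CPM in the controls. TWSD 3 lay above every T library (at most 654 CPM) but below WSD 4 and WSD 10, at 712 and 759 CPM. EPRS1 had a log2 change of 1.46 ± 0.32 (edgeR adjusted p = 0.0217). Without TWSD 2 none of the 3 passed. The changes were then 1.14 for RARS1, 1.18 for LARS1 and 0.76 for EPRS1 (edgeR adjusted p = 0.637, 0.563 and 0.637), from the single library TWSD 3, which is assumed to vary like the other groups.

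The other 4 enzymes of the complex did not pass. KARS1 and MARS1, for lysine and methionine, had log2 changes of 0.50 and 0.11, and IARS1 and QARS1, for isoleucine and glutamine, -0.36 and -0.17. IARS1 was at 185 CPM in TWSD 2, the lowest but 1 of the 25 libraries, beside the highest RARS1, LARS1 and EPRS1. The complex's scaffold genes AIMP1 and AIMP2 had log2 changes of 0.25 and 0.69 and did not pass (edgeR adjusted p = 0.655 and 0.329).

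Outside the complex, YARS1 (tyrosine) was at 990 and 732 CPM in TWSD 2 and TWSD 3, above all other libraries, where the highest was 653 CPM. Its log2 change was 1.07 ± 0.33 (edgeR adjusted p = 0.0831). WARS1, the tryptophan enzyme, was at 1361 CPM in TWSD 2 but 379 in TWSD 3, and C 1 reached 1029 CPM (log2 change 1.29 ± 0.59, edgeR adjusted p = 0.198). FARSA and FARSB, the subunits of the cytosolic phenylalanine enzyme, were at 361 and 628 CPM in TWSD 2 and 204 and 305 in TWSD 3. FARSA ranged from 118 to 173 CPM in the controls, and FARSB from 24.7 CPM in C 12 to 407 in C 1. In C 12, where FARSB was lowest of the 25 libraries, FARSA was at 143 CPM, inside the control range.

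Of the 16 mitochondrial genes 11 had a positive change in TWSD against C, and the median was 0.50 against -0.38 for all genes. IARS2 was at 261 and 121 CPM (log2 change 1.52 ± 0.45, edgeR adjusted p = 0.0780) and NARS2 at 381 and 131 CPM (1.44 ± 0.44, edgeR adjusted p = 0.0829). For both, TWSD 2 was the highest of all libraries and TWSD 3 lay inside the T range. TARS2 was at 300 and 216 CPM, the highest pair of the 25 libraries. The next library had 193 CPM, and the change was 1.77 ± 0.76 (edgeR adjusted p = 0.181).

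**Figure D5:**
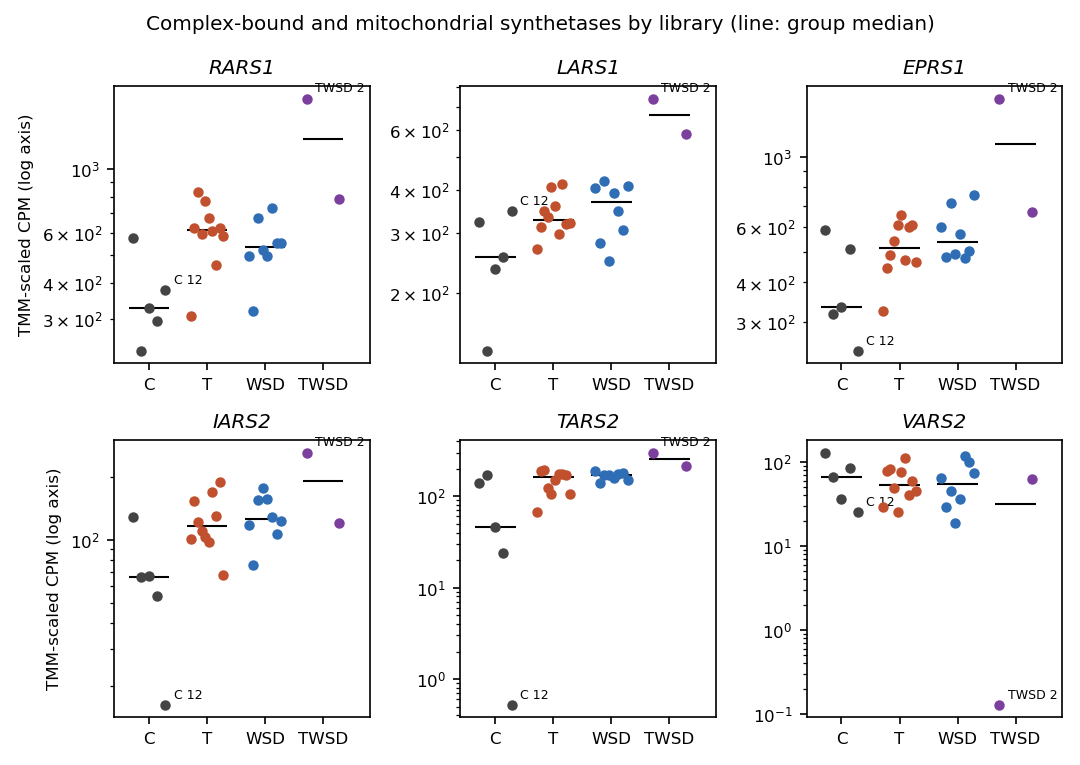
TMM-scaled CPM on a log axis for 3 genes of the multi-synthetase complex (top) and 3 mitochondrial genes (bottom), with a point per library and a line at each group median. RARS1, LARS1 and EPRS1 are highest in TWSD 2, TARS2 drops to 0.522 CPM in C 12 and VARS2 to 0.129 CPM in TWSD 2.

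Against the single treatments no synthetase gene passed. In TWSD against T, 7 genes had an unadjusted p under 0.05 and none passed. Of all genes tested, 13.3% had an unadjusted p under 0.05 by edgeR there and 0.0502% passed. The smallest adjusted p was 0.116 for LARS1 (0.96 ± 0.25 in log2), followed by EPRS1 (1.08 ± 0.29, edgeR adjusted p = 0.123). DESeq2 called both of these. In TWSD against WSD, 9 genes had an unadjusted p under 0.05, beside 13.6% of all genes, of which 0.0502% passed. RARS1 was first (1.23 ± 0.32, edgeR adjusted p = 0.119), and DESeq2 called RARS1 alone. The interaction, the effect of both treatments beyond the sum of each, passed for none. There 6 genes were under 0.05 unadjusted, beside 13.6% of all genes, of which 0.0718% passed. SARS1 had 2.39 ± 0.71 (edgeR adjusted p = 0.144), and DESeq2 and voom called none of the synthetase genes. The falls of AARS1 and SARS1 in T and WSD were therefore not shown to differ from their values in TWSD, where the changes were -1.96 ± 0.87 and -1.40 ± 0.72 (edgeR adjusted p = 0.188 and 0.251).

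Pairs of enzymes for the same amino acid give a view free of gene length. For 15 cytosolic and mitochondrial pairs the log2 ratio was taken in each library, less its median over the 25 libraries. EPRS1 enters 2 of the pairs, with EARS2 and with PARS2. In C 12 the ratio stood 10.29 above the median for threonine, 6.94 for alanine, 6.00 for serine, 4.84 for cysteine and 3.70 for isoleucine. It stood below the median for tryptophan (-2.79) and tyrosine (-1.42), so the shift toward the cytosolic enzyme in C 12 was not shared by all amino acids.

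C 11 was more even. There 12 of 15 pairs lay above the median, the median pair was at 1.31, and serine (3.07), threonine (2.63) and asparagine (2.08) led. C 8 had 8 of 15 pairs above the median and a median of 0.09, with histidine (2.20) and threonine (1.72) leading. C 1 and C 2 had 3 and 1 pairs above it. In the T and WSD groups the median pair lay between -0.88 and 0.38 in every library.

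In TWSD 2 the pairs that stood out were methionine (9.06), valine (4.81), proline (3.06), tyrosine (2.95) and leucine (2.86). The first of these rests on 0 counts of MARS2, and the second on 2 counts of VARS2 beside a low VARS1. Isoleucine and histidine were at -1.67 and -1.05. TWSD 3 stayed between -0.45 and 0.85 for all 15 pairs.

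Gene order adds 2 observations. HARS1 and HARS2 are direct neighbours in the RefSeq annotation, the only such pair among the 35 genes, and both had their highest level in C 12, at 2688 and 278 CPM. C 12 was highest for 8 of the 19 cytosolic and 2 of the 16 mitochondrial genes, and for 19.3% of all genes tested. In C 8, where HARS1 was at 1182 CPM, HARS2 was at 73.3 CPM, inside the range of the other libraries. EPRS1 and IARS2 lie on either side of a single gene, BPNT1, and both were lowest of the 25 libraries in C 12 and highest in TWSD 2. FARSB, YARS1, FARS2 and TARS2 had the same extremes, so these were not particular to the genes beside BPNT1. The strand setting of the counting is not given in the sources used here, so reads of overlapping neighbours could not be told apart.

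Genes that work beside the synthetases mostly did not pass. Of 11 other charging genes, none passed in T or WSD against C. Of 8 elongation factors and tRNA exporters none passed against C in any group. XPOT, which exports tRNA from the nucleus, had a change of 1.06 ± 0.30 in TWSD (edgeR adjusted p = 0.0676).

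Some genes of the ATF4 pathway fell in the same comparisons as AARS1 and SARS1. Of 22 listed genes 5 fell in T and 6 fell in WSD, where 3.77% and 3.6% of all genes tested were called lower. None passed in TWSD, where 0.337% were called lower. The median log2 changes of the list were -1.21, -1.29 and -1.57. The list holds stress genes and amino acid synthesis genes, and the calls were all of the first kind (TRIB3, DDIT3, EIF2AK3, PPP1R15A and CEBPB, with ATF4 in WSD). ATF4 changed by -1.42 ± 0.40 in WSD (edgeR adjusted p = 0.0425) and by -1.23 ± 0.38 in T (edgeR adjusted p = 0.0629). TRIB3, a pseudokinase that ATF4 induces, stood at 9.51, 3.84, 9.20, 96.8 and 851 CPM in the controls. ASNS, which makes asparagine and is a classical ATF4 target, stood at 146, 44.5, 81.8, 291 and 312 CPM and did not pass in any comparison with C. C 12 was the highest control for all 3, but the listed genes were split there. It was also the highest control for DDIT3, SESN2, SLC7A11, SLC7A5, SLC3A2, PPP1R15A and CEBPB. It was the lowest control for PSAT1, PSPH, MTHFD2, ALDH18A1 and EIF2AK4, at 27.3, 16.6, 58.2, 22.1 and 6.06 CPM. For the other listed genes C 12 was neither the highest nor the lowest control.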

How the data were processed

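RNA was sequenced from macaque blastocysts in 25 libraries. The deposited table holds a whole-number read count for each gene and library, which the authors left unnormalized. Per the submitters' processing notes, FastQC 0.11.8, Trimmomatic 0.39 and STAR 2.7.0 were used with genome build Mmul_10. How reads were counted, on which annotation release and with which strand setting is not given in the sources used here, so reads of overlapping genes or near-identical copies may be shared. Groups came from the sample titles. Of 35395 gene identifiers, 24173 had a symbol in the reference table. The order of genes came from the RefSeq annotation of another macaque assembly, so no coordinates are given.

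A gene was tested when 5 or more libraries had at least 1 CPM of it, counts were scaled with TMM factors, and edgeR 4.0.16 (R 4.3.3) was fitted over all 25 libraries with group as the only term. Its robust quasi-likelihood F-test gave 7 comparisons, with Benjamini-Hochberg adjustment over all 13934 genes and a threshold of 0.05. edgeR estimated a biological coefficient of variation of 0.9. A change is the first-named group against the second, and log2 CPM used a prior count of 2. The scripts were tested on simulated data. Over the 300 pairs of libraries the smallest chi-square per gene was 71.7, so no library repeated another. Full values were given for genes that passed and for the 4 with the smallest p in each class in T and in WSD against C, and other genes were singled out after their values were seen. The members and lists were chosen with earlier results of these data known. On the related lists, EEF1E1, EEF1D and 1 ATF4 pathway gene were not matched and were not analysed here. The other charging genes in TWSD against C are not reported here. Alternatives were library totals, DESeq2 1.42.0, limma 3.58.1 voom with quality weights, no filter, and the replicate number as a block. The C and TWSD libraries and T 1 were also left out, but no other T and no WSD library.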

Additional observations from a re-analysis of the deposited data

Results flagged for a closer look

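In 8 of the 105 groups of levels examined (35 genes in the C, T and WSD groups of 5, 10 and 8 libraries), a single library lay far from the rest of its group by Dixon's test on log2 CPM, which chance flags in about 1 of 20. Of these, 3 were in C 12. AARS1 was at 5350 CPM there, against 250 to 560 in the other controls. HARS2, for mitochondrial histidine, was at 278 CPM against 61.8 to 86.7, and RARS2, for mitochondrial arginine, was at 11.2 CPM against 43.2 to 59.7. WARS1, for cytosolic tryptophan, was high in C 1 at 1030 CPM against 134 to 242. In T 1, MARS1 (cytosolic methionine) was at 141 CPM against 271 to 399 in the other T libraries, and WARS2 (mitochondrial tryptophan) at 13.9 CPM against 32.0 to 60.4. In the WSD group RARS1 was low in WSD 3, at 318 CPM against 495 to 733, and MARS2 was low in WSD 1, at 17.8 CPM against 33.7 to 59.1.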

How the results depend on the processing

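The number of synthetase genes called depended on single libraries, as did the share of all genes called. Each C and TWSD library and T 1 were left out in turn, but no other T and no WSD library. In T against C the count ran from 0 (without C 12) to 9 (without C 1). It was 3 over all libraries and 5 without T 1. Of all genes tested, 0.268% were called lower and 0.0218% higher without C 12, and 7.51% and 1.8% without C 1. Without T 1 the shares were 5.7% and 0.742%. In WSD against C the count ran from 0 (without C 12) to 6 (without C 1), with 2 over all libraries and 4 without C 2. There 0.327% of all genes were called lower and 0.0435% higher without C 12, and 6.65% and 1.38% without C 1. Without C 2 the shares were 6.48% and 1.2%. In TWSD against C it ran from 0 (without TWSD 2) to 13 (without TWSD 3; 9 rose and 4 fell), with 3 over all libraries and 8 without C 1. Over all libraries the count was 0 in TWSD against T, TWSD against WSD and the interaction. Without C 2, SARS1 alone passed in the interaction. Without C 12 the count was 2 in TWSD against T and 2 in TWSD against WSD. Of all genes, 0.755% and 1.2% were called higher there, and 0.203% and 0.283% lower. With C 8, C 11 and C 12 left out together, C 1 and C 2 were the only controls. T 1, which also had a high syncytiotrophoblast sum, was kept, as was C 1 with its low trophectoderm sum. The count was then 0 for T, WSD and TWSD against C, and 2 for TWSD against T and against WSD. Of all genes, 0 were called in T, 0.00742% lower in WSD, and 0.0817% higher and 0.0668% lower in TWSD against C. In TWSD against T and against WSD 1.6% and 1.98% were called higher, and 0.445% and 0.505% lower. Library totals gave 1 (SARS1) in T and 1 (SARS1) in WSD, and no filter gave 1 in WSD. With library totals 1.51% and 1.94% of all genes were called lower in T and WSD, and with no filter 1.29% in WSD. DESeq2 gave 4 in WSD, including the mitochondrial IARS2, and 6 in TWSD against C, including IARS2 and NARS2. It gave 2 in TWSD against T and 1 in TWSD against WSD. Over all genes DESeq2 called 7.06% lower and 1.44% higher in WSD, and 6.7% and 1.21% in T. For TWSD against T and against WSD, DESeq2 called 3.33% and 3.18% lower, and 0.804% and 0.933% higher. In T it gave 3, with HARS1 in. DESeq2 gave no p to AARS1 and HARS2 in T, WSD and TWSD against C, so neither could be called there. Voom gave 0 in all comparisons, and it called 0 of all genes tested. With voom 8, 7 and 6 synthetase genes were at an unadjusted p under 0.05 in T, WSD and TWSD against C. DESeq2 called 427 of all genes higher and 1567 lower in TWSD against C, where edgeR called 120 and 47. The median log2 change of all genes in T was -0.12 with TMM, 0.02 with library totals and -0.19 with DESeq2, and in WSD -0.12, -0.01 and -0.19.

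With the replicate number as a block, 0 synthetase genes and 0 of all genes tested passed in T, WSD and TWSD against C. Of the synthetase genes 4, 2 and 10 were at an unadjusted p under 0.05, beside 786, 566 and 1817 of all 13934 genes. LARS2 was at -0.01 in T and -0.05 in WSD. A correlation of deviations over 0.1 was found in 3 of 16 same-numbered pairs and in 30 of 200 other pairs (median -0.01 and 0). So few pairs cannot show whether same-numbered libraries share a parent or batch.

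Some directions turned with C 8, C 11 and C 12 left out together, with C 1 and C 2 as the only controls. In T they turned for AARS1 (0.32), SARS1 (0.21) and HARS1 (1.08). In WSD they turned for AARS1 (0.54), SARS1 (0.19), CARS1 (0.09), HARS1 (1.14) and FARS2 (-0.03). With voom they turned in WSD for AARS1 (0.22) and CARS1 (0.04). With a single C or TWSD library or T 1 left out, AARS1 in WSD ran from -2.14 to 0.12. The compartment difference in TWSD against C was 0.20, and ran from -0.35 (without TWSD 2) to 0.75 (without TWSD 3). The cause of these changes was not tested beyond the libraries named. The 2 TWSD libraries limit every TWSD comparison.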
